A study of Mus musculus with 13 samples.

Results

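The onset of the transcriptional answer to γ-irradiation in mouse oocytes was examined in 1 library, taken 2.5 h after 0.5 Gy, set against the 4 libraries of 0 and 1 h at the same dose. The 5 libraries were chosen by the dose and time in their labels, out of 13 in the series, and not by any measured value. All came from ovaries of P5 female CD-1 mice that were cultured overnight, and irradiation was with a caesium source. The study describes its 0 h samples as collected before the irradiation. Oocytes were released with trypsin, separated from follicular cells by repeated centrifugation, and 4 ovaries went into each time point. There are 2 libraries each of 0 and 1 h, and the 2.5 h time point has no replicate. Replicate 1 of 0 and 1 h is labelled as first generation, and replicate 2, like the 2.5 h library, as second generation. The labels do not say what separates the generations, and they name no transgene or drug.

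Primordial oocytes carry TAp63α, the p53 family member that guards the female germ line. DNA double-strand breaks activate the kinases ATM and CHK2, TAp63α is then phosphorylated and turns from an inactive dimer into an active tetramer, and the tetramer binds the same kind of DNA element as p53. Its targets include the BH3-only genes Bbc3 (PUMA) and Pmaip1 (NOXA), which start apoptosis at the mitochondria, as well as genes best known from the p53 answer of somatic cells such as Cdkn1a (p21) and Mdm2.

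A p53 family element is a pair of half-sites of 10 bases each. Promoter sequences from RefSeq (build GRCm38.p6, 250 bases before to 50 bases after a start site) were searched for the p53 half-site without mismatch, and for the full element of 20 bases with no spacer, at most 1 mismatch and both half-site cores intact. The half-site reads the same on both strands, and every full element overlaps the half-sites within it. Of 32851 promoters, 8.36% held a half-site and 0.0548% a full element. The stretches shown here belong to 4 genes that were at least 2-fold above all earlier libraries at 2.5 h, with the match in capitals.
Cdkn1a, chr17:29090868-29090978, plus strand: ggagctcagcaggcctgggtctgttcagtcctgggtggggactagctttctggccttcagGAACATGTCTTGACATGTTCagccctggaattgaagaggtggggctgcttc
Gtse1, chr15:85859945-85859964, plus strand: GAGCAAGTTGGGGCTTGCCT
Mdm2, chr10:117710865-117711004, minus strand: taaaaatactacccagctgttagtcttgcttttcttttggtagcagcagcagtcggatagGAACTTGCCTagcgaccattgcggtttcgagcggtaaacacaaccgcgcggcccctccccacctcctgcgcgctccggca
Ccng1, chr11:40755392-40755531, minus strand: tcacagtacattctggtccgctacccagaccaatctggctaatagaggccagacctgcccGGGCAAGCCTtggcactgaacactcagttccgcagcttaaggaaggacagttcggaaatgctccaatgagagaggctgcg
The full element of Cdkn1a begins 51 bases before the more upstream of its annotated start sites, and that of Gtse1 begins 1 base before the start site. The windows of Mdm2 and Ccng1 hold a half-site, 186 and 185 bases before the start. A match is a string of letters and was not tested for binding in these data.

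The libraries of 0 h held 26081298 and 15709549 estimated reads, those of 1 h held 26499249 and 27736274, and the 2.5 h library held 26694892. Reads were summed per gene and are given as CPM, counts relative to the size of the library after TMM scaling, which removes differences in depth and composition. In the 2.5 h library, the 573 reads of Sesn2 make 20.9 CPM. In all, 17078 protein-coding genes with a mean of at least 10 reads over the 8 libraries of 0.5 Gy were compared. With 1 library on one side, an exact permutation test of a single gene cannot go below p = 0.2 (one-sided). The comparison was therefore described by place, a gene being above or below the range when its 2.5 h level lay outside all 4 earlier levels. It was also tested with edgeR's quasi-likelihood method in a model of the 8 libraries, where the single library takes its spread from the duplicates.

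At 2.5 h, 3881 protein-coding genes lay above the range (22.7%) and 3185 below it (18.6%), and 10012 lay within it. Any 1 of 5 like libraries would be the highest for a share of about 0.2 of genes, and the lowest for as many. Both shares were near that, so these counts alone show no response. At least 2-fold beyond the nearest earlier library, on the scale of log2 CPM with a prior count of 2, lay 182 genes above (1.07%) and 218 below (1.28%). On TPM, where no factor between libraries was applied, 5455 genes were above and 1762 below, a share of 75.6% above in place of 54.9%. On CPM by library totals only, also without a factor, 4798 were above and 2605 below (64.8% above). With the 2-fold limit the share above was 69.8% on TPM, 53.7% on library totals and 45.5% on CPM with TMM. The median gene was higher at 2.5 h by 0.21 (log2) on TPM and 0.13 on library totals, against 0.05 on CPM with TMM. No gene passed both limits of the edgeR test, an adjusted p below 0.05 and a log2 fold change beyond 1 in size (0%), although 692 genes had an unadjusted p under 0.05, and the smallest adjusted p of edgeR was 0.0666. DESeq2 with a beta prior, fitted to the same counts, called 34 genes higher and 19 lower, and gave 892 genes an unadjusted p under 0.05. Wherever an adjusted p is given from here on, the tool is named with it.

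Genes just outside the 2-fold limit were Inka2 and P2ry1 above, at 5.00 and 5.54 CPM with 2.46 and 2.73 CPM in their highest earlier library. Just inside it lay Gm765 and Tjp3, both at 1.02 CPM with 0.472 CPM as the highest earlier level. Below the range, Elobl and Ccdc38 lay just outside the limit at 50.5 and 0.292 CPM, and Bcan and Vmn1r174 just inside it at 0.511 and 0.365 CPM. The 182 genes 2-fold above had a median of 0.731 CPM in the earlier libraries and 3.28 CPM at 2.5 h, and the 218 genes below had medians of 2.28 and 0.328 CPM. Over all genes compared the earlier median was 16.2 CPM, so both groups consist mostly of weakly expressed genes. In 56 of the 218 genes below, the 2.5 h library held 3 reads or fewer.

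Cdkn1a, the inhibitor of cyclin-dependent kinases also called p21, was at 3.62 and 4.25 CPM at 0 h, 6.09 and 11.2 CPM at 1 h and 55.9 CPM at 2.5 h. The 2.5 h level was 4.99 times the highest and 8.89 times the mean of the earlier levels (6.29 ± 3.44 CPM, SD, n = 4), and no earlier library came near it. The log2 fold change of edgeR was 3.14 (SE 0.51, adjusted p = 0.236), and that of DESeq2 2.29 (adjusted p = 1.96e-07). The later libraries of 0.5 Gy, which are compared with the same earlier libraries, were at 44.5 and 90.8 CPM (4 h) and 61.2 CPM (6 h). The 2.5 h level thus lay between those of the 2 replicates of 4 h.

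Cdkn1a reads came from more than one annotated start. Transcript Cdkn1a-202, whose start lies just behind the full element printed above, held 50.9 and 22.2 reads at 0 h, then 44.2 and 129 at 1 h, and 565 reads in the 2.5 h library, as salmon assigned them. Cdkn1a-201, which starts further downstream, held 35.0 and 33.2 reads, then 88.9 and 159, then 929. Both transcripts were outside their earlier counts at 2.5 h, and Cdkn1a-202 held 36.9% of the gene's reads there, within its earlier shares of 28.3% to 55.1%.

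Mdm2 encodes the ubiquitin ligase that marks p53 for degradation and is itself switched on by p53, a negative feedback. It was at 56.4 and 63.9 CPM at 0 h, 51.1 and 73.6 CPM at 1 h and 260.3 CPM at 2.5 h. The 4 earlier libraries were close together (61.2 ± 9.76 CPM, SD, n = 4), and the 2.5 h level was 3.54 times the highest of them. The log2 fold change was 2.09 (SE 0.33, adjusted p = 0.236) in edgeR and 1.81 (adjusted p = 3.76e-06) in DESeq2. The libraries of 4 h held 228.1 and 458.8 CPM and that of 6 h held 571.8 CPM, so the 6 h level was the highest of the 8 libraries. Most Mdm2 reads were assigned to transcript Mdm2-209, which starts inside the gene on chromosome 10 at 117710022 rather than at its first exon. The half-site printed above lies before the first exon, which starts at 117710758, and its part in these reads was not tested. Mdm2-209 is annotated as a target of nonsense-mediated decay. That transcript held between 62.7% and 82.6% of the gene's reads in the earlier libraries and 77.4% at 2.5 h. Its count was 5519 at 2.5 h and between 783 and 1472 before.

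**Figure D1:**
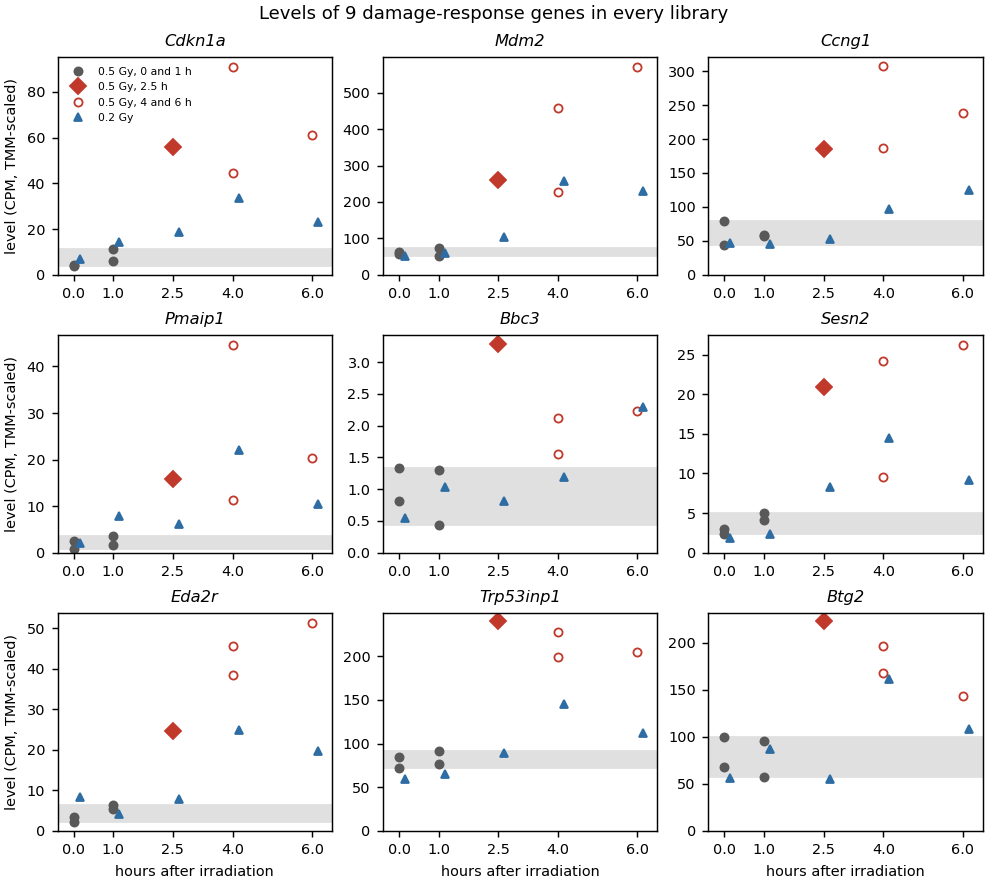
Levels (CPM scaled with TMM, linear axes from 0) of 9 genes against hours after irradiation, with each point 1 library. Grey points and the grey band are the 4 libraries of 0 and 1 h at 0.5 Gy and their range, the red diamond is the 2.5 h library, open circles are 4 and 6 h, and blue triangles (set slightly to the right) are 0.2 Gy. Triangles were scaled over all 13 libraries and the other points over the 8 libraries of 0.5 Gy. All 9 diamonds lie above the band, from 55.9 CPM against at most 11.2 CPM for Cdkn1a to 3.28 CPM against at most 1.34 CPM for Bbc3.

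Each list below is to be read beside all genes compared, of which 22.7% lay above the range and 18.6% below it. At least 2-fold outside were 1.07% above and 1.28% below. Of the 9 genes of the p53 feedback list, 6 were above the range (66.7%) and none below. The median log2 fold change was 0.49, beside 0 over all protein-coding genes. Besides Mdm2, Ccng1 and Trp53inp1 were at least 2-fold above. Ccng1, a cyclin that recruits phosphatase 2A to Mdm2, was at 43.8 and 79.5 CPM at 0 h, 58.7 and 56.8 CPM at 1 h and 184.7 CPM at 2.5 h. Trp53inp1, a nuclear cofactor of p53 in apoptosis, was at 72.5 and 85.0, 76.5 and 91.7, and then 240.6 CPM. Of this pair, Trp53inp1 had the narrower earlier range and the smaller standard error in edgeR (log2 fold change 1.56, SE 0.23, adjusted p = 0.19). Mdm4, Ccng2 and Cop1 stayed within the range.

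In the list of cell cycle arrest genes, 9 of 13 were above the range, none was below, and 5 were at least 2-fold above. The median log2 fold change was 1.12. Sfn, the 14-3-3σ protein that holds cyclin B1 in the cytoplasm, was at 0.314 and 1.01 CPM at 0 h, 2.46 and 1.59 CPM at 1 h and 5.76 CPM at 2.5 h. The antiproliferative gene Btg2 was at 67.8 and 99.3, 95.2 and 56.9, and then 223.0 CPM. Of its 30-base words, Sfn shares 27.7% with transcripts of other genes, so some of its reads may not be its own, while Btg2 shares none. Gtse1, a microtubule protein that shuttles p53 out of the nucleus, was at 28.3 CPM with an earlier range of 9.10 to 12.7 CPM. Plk2, a polo-like kinase, was at 137.6 CPM with an earlier range of 46.4 to 65.6 CPM. Gadd45a, Psrc1, Cdkn1b and Cdkn2a lay within their ranges. The adjusted p of edgeR for Sfn, Btg2, Gtse1 and Plk2 was 0.972, 0.52, 0.732 and 0.951, and DESeq2 passed Btg2 and Gtse1 (adjusted p = 0.0138 and 0.0241).

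Among the 8 BH3-only genes, 4 were above the range (50%) and 1, Bik, below (12.5%). Pmaip1 (NOXA), which frees BAX and BAK by binding MCL1, was at 0.864 and 2.43 CPM at 0 h, 3.63 and 1.70 CPM at 1 h and 15.8 CPM at 2.5 h. Bbc3 (PUMA), which binds all antiapoptotic BCL2 proteins, was at 1.34 and 0.809, 0.429 and 1.30, and then 3.28 CPM. Pmaip1 was thus 4.34 times its highest earlier level and Bbc3 2.46 times. The log2 fold changes of edgeR were 2.87 (SE 0.69, adjusted p = 0.743) and 1.75 (SE 0.69, adjusted p = 0.972), and of these DESeq2 passed Pmaip1 (adjusted p = 0.000669) but not Bbc3 (0.688). At 4 h Pmaip1 was at 11.4 and 44.6 CPM and Bbc3 at 1.55 and 2.12 CPM, so the Bbc3 level of 2.5 h was above both. The pattern of Bbc3 rests on 90 reads at 2.5 h and 11 to 36 reads in each earlier library.

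Effectors act behind the BH3-only proteins. Of the 17 genes of the mitochondrial list, 12 were above the range, but none reached the 2-fold limit, and the median log2 fold change was 0.37. Bax, one of the pore formers of the outer mitochondrial membrane, was at 75.3 CPM, with 29.2 to 54.1 CPM before. Bak1, the other pore former, was at 4.49 CPM, close to its highest earlier level of 4.37 CPM. Cycs was the single member below the range. Of the 10 apoptosis inhibitors, 2 were above (20%) and 3 below the range (30%), with 22.7% and 18.6% over all genes. Bcl2 and Bcl2l1 were the 2 above, at 46.0 and 83.7 CPM with 35.2 and 69.6 CPM as the highest earlier levels.

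In the list of death receptors and their adaptors, 6 of 16 genes were above the range (37.5%) and 2 at least 2-fold above. The list's median log2 fold change was 0.03, near that of all genes. Eda2r, the receptor of ectodysplasin A2, was at 3.38 and 2.09 CPM at 0 h, 6.44 and 5.24 CPM at 1 h and 24.7 CPM at 2.5 h. Traf4, an adaptor of the TNF receptor family, was at 5.38 and 6.60, 6.87 and 8.57, and then 21.7 CPM. Eda2r was outside its earlier range in each of the later libraries too, at 38.6, 45.6 and 51.3 CPM. Fas, the best known death receptor among p53 targets, and Casp8 lay within their earlier ranges.

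Of 16 metabolic and stress targets of p53, 11 were above the range and none below, with a median log2 fold change of 0.79. Sesn2, which restrains mTORC1, was at 2.40 and 2.97 CPM at 0 h, 4.10 and 4.99 CPM at 1 h and 20.9 CPM at 2.5 h. Phlda3, a pleckstrin homology protein that competes with AKT for membrane lipid, was at 2.32 and 1.69, 3.32 and 4.23, and then 20.8 CPM. These were the 2 members beyond the 2-fold limit, and DESeq2 passed both (adjusted p = 0.000215 and 8.45e-06) while edgeR did not (0.44 and 0.319). Of 14 repair genes that p53 is known to control, 8 were above and 3 below, none 2-fold. Ddb2 and Xpc, which recognise ultraviolet lesions, were at 35.7 CPM (26.5 to 36.7 CPM before) and 76.1 CPM (48.5 to 62.6 CPM before).

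Genes that act before transcription stayed near their earlier levels. Trp53 was at 133.9 and 76.4 CPM at 0 h, 89.2 and 105.0 CPM at 1 h and 100.8 CPM at 2.5 h. Trp63, which encodes TAp63α, was at 49.3 and 104.8, 95.8 and 76.1, and then 110.6 CPM, just above its highest earlier library. Atm was within its range at 46.4 CPM, and Atr at 92.7 CPM was under its lowest earlier level of 100.3 CPM. Of the 9 damage kinases, 3 were above and 1 below the range.

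**Figure D2:**
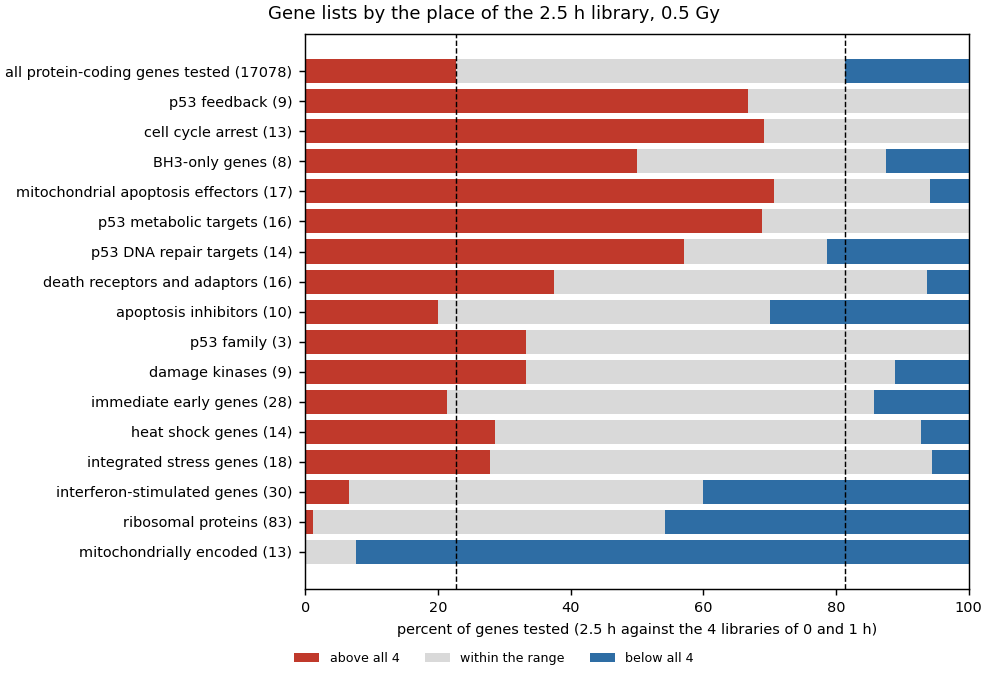
Share of each gene list (number of genes tested in parentheses) whose 2.5 h level lay above all 4 libraries of 0 and 1 h (red), within their range (grey) or below all 4 (blue), in percent. Dashed lines mark the shares over all 17078 protein-coding genes, 22.7% above and 18.6% below. The p53 lists for feedback, arrest and metabolism reach 66.7% to 69.2% above, and the mitochondrially encoded genes have none above.

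The study's own list of p53 targets holds 64 genes, with a median log2 fold change of 0.43. Of these, 36 were above the range (56.2%, with 22.7% over all genes compared) and none was below (18.6% over all). At least 2-fold above were 10 of them, with 1.07% over all genes. These genes were proposed as p53 targets by earlier work on mouse embryo fibroblasts treated with doxorubicin. Pard6g, a polarity protein, was the member of this list not named so far that passed the limit, at 20.6 and 33.9 CPM at 0 h, 26.4 and 25.9 CPM at 1 h and 80.2 CPM at 2.5 h. Of 17 tested genes of the study's apoptosis list, 7 were above (41.2%) and 1 below (5.88%), with Pmaip1 and Bbc3 beyond the limit. Of 37 tested genes of its DNA repair list, 12 were above (32.4%) and 6 below (16.2%, near the share of all genes), and none was 2-fold outside. Pclaf, which binds PCNA, and Tipin, a fork protection protein, were both below, at 42.8 CPM (61.3 to 84.4 CPM before) and 89.0 CPM (90.4 to 115.8 CPM before). The genes of both lists were picked by words in their Gene Ontology terms, and the sources used here do not say whether measured values also entered the choice.

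Genes of other stress programmes were compared with the same range. Immediate early genes, which answer within minutes, were above the range in 6 of 28 cases (21.4%) and below in 4 (14.3%). Over all genes compared the shares were 22.7% and 18.6%, so this list was near them. Fos was within its earlier range at 45.6 CPM (20.2 to 92.8 CPM), as was Fosb at 5.84 CPM (2.53 to 8.51 CPM). Heat shock genes were above in 4 of 14 cases and below in 1, with Hspa1a at 0.657 CPM and Hspa1b at 1.17 CPM, both inside their ranges. These 2 genes share 70.3% and 68.4% of their 30-base words with other genes, so their reads cannot be assigned with certainty. Of 18 genes of the integrated stress response, 5 were above and 1 below, and Sesn2 was the single gene beyond 2-fold. Of 30 interferon-stimulated genes, 2 were above (6.67%) and 12 below the range (40%), and the median log2 fold change was -0.35. Oas1a, a sensor of double-stranded RNA, had 2 reads at 2.5 h and 16 to 39 reads in each earlier library. Of its 30-base words 69.5% also occur in other genes, so the assignment of its reads is uncertain.

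The 15 protein-coding genes with the largest gap above the range included Cdkn1a and Phlda3 and otherwise genes of quite different roles. D630023F18Rik, an uncharacterised gene on chromosome 1, was at 0.589 and 0.606 CPM at 0 h, 0.702 and 0.398 CPM at 1 h and 27.9 CPM at 2.5 h. It was 39.7 times its highest earlier level, and its earlier levels were nearly equal. Its log2 fold change was 5.60 in edgeR (SE 0.60, adjusted p = 0.0666) and 3.55 in DESeq2 (adjusted p = 7.74e-19), and it was at 13.6, 63.3 and 73.8 CPM in the later libraries. With 1 other library left out at a time, its log2 fold change in edgeR was 5.45 to 5.72. Xdh, xanthine dehydrogenase of purine breakdown, was at 0.236 and 0.606 CPM, then 0.156 and 2.39 CPM, and 79.4 CPM at 2.5 h. It did not keep that level in every later library, with 2.35 and 16.3 CPM at 4 h and 62.6 CPM at 6 h, and its standard error in edgeR was 1.04 (adjusted p = 0.236).

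Next came genes with few reads before 2.5 h. Gm648, on the X chromosome, was at 1.53 and 1.01 CPM at 0 h, 0.546 and 0.108 CPM at 1 h and 15.7 CPM at 2.5 h, and Ccdc88b, a microtubule linker of immune cells, was at 0.668 to 1.05 CPM before and 7.81 CPM at 2.5 h. The transcription factors Myod1, of muscle, and Lhx3, of the pituitary and motor neurons, had 0 to 2 and 1 to 6 reads in each earlier library and 51 and 62 reads at 2.5 h. Slc2a9, a urate transporter, had 3 to 10 reads per earlier library and 66 at 2.5 h, and the IGF binding subunit Igfals had 10 to 12 and then 134 reads. Ankrd65 (1 to 6, then 38 reads), Nxf3 (9 to 14, then 90 reads) and the lymphocyte gene Crtam (5 to 10, then 58 reads) were of the same kind. The uncharacterised 9930012K11Rik had a higher base, at 4.58 to 12.8 CPM before and 62.3 CPM at 2.5 h. Gm43191 had no read in the 4 earlier libraries and 30 at 2.5 h, at least 5.42-fold higher than the 3 reads per library that a count of 0 allows. It shares 95.9% of its 30-base words with other genes, which makes it the 1 gene of these 15 with over 50% shared. DESeq2 passed 11 of the 15 at an adjusted p under 0.05, and edgeR passed none. Over all 17078 genes compared, DESeq2 passed 54 at that limit, with none set on the fold change. The 15 were ranked by the same libraries that both tools compare, so these counts are no separate support.

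**Figure D3:**
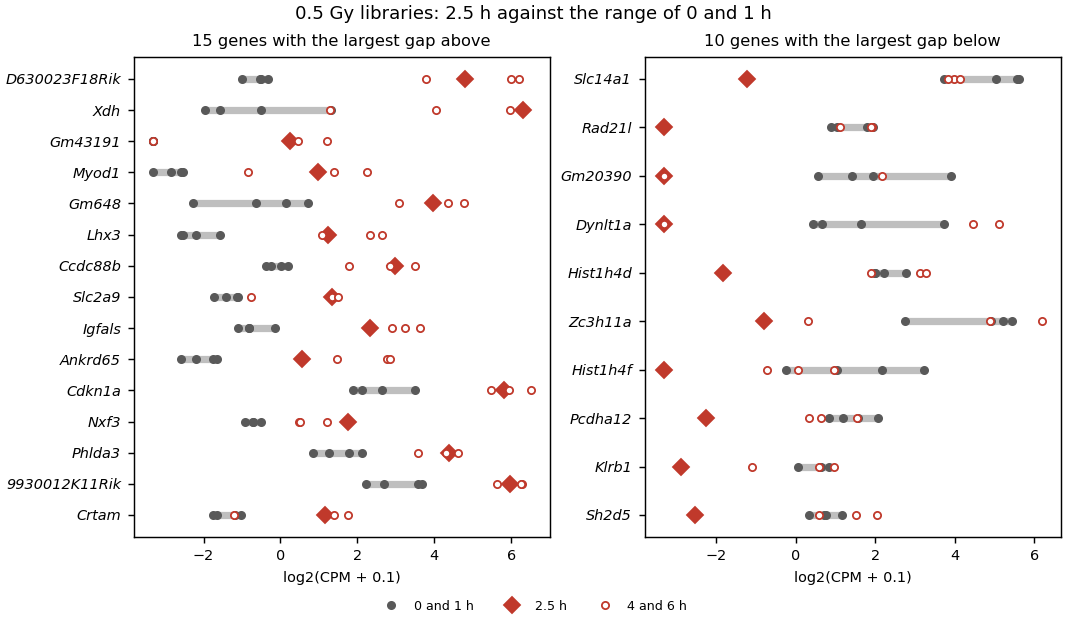
Levels as log2(CPM + 0.1) of the 15 protein-coding genes with the largest gap above the earlier range (left) and the 10 with the largest gap below it (right), in the 8 libraries of 0.5 Gy. Grey points and bars are the 4 libraries of 0 and 1 h and their range, red diamonds are 2.5 h and open circles are 4 and 6 h. D630023F18Rik heads the left panel at 27.9 CPM against at most 0.702 CPM before, and Slc14a1 heads the right one at 0.328 CPM, with the 3 later libraries back at 14.2 to 17.4 CPM.

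The largest gap below belonged to Slc14a1, the urea transporter of red cells and kidney. It was at 47.3 and 13.1 CPM at 0 h, 32.8 and 48.7 CPM at 1 h and 0.328 CPM at 2.5 h, where it had 9 reads. The later libraries were at 15.8, 17.4 and 14.2 CPM, within the earlier range, so among the libraries of 0.5 Gy the 2.5 h library alone was that low. edgeR gave a log2 fold change of -6.74 (SE 0.96, adjusted p = 0.19) and DESeq2 one of -2.63 (adjusted p = 3.46e-10). Without replicate 2 of 0 h, whose level of 13.1 CPM was the lowest before, the log2 fold change of edgeR was -7.02. It was -6.55 to -6.78 when a different library was left out. At 0.2 Gy, Slc14a1 was at 1.79 CPM at 0 h and 0.485 CPM at 4 h but at 28.6, 15.8 and 19.8 CPM at 1, 2.5 and 6 h, so it varied widely between libraries there too.

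Rad21l, the meiotic cohesin subunit, had no read at 2.5 h and 45 to 103 reads in each earlier library. With 3 reads allowed for a count of 0, its level was at least 16.1-fold lower than the lowest earlier one (1.76 CPM), and it was back at 2.08 to 3.68 CPM in the later libraries. Sh2d5 had 2 reads at 2.5 h and 23 to 55 before, and Klrb1, a receptor of natural killer cells, 1 read and 21 to 43 before. None of these 3 shares over 2% of its words with another gene.

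For most of the remaining 6, read assignment was uncertain. Hist1h4d, a histone H4 gene, had 5 reads at 2.5 h and 58 to 187 before, and it shares 14.9% of its words with other genes. Its neighbour in the family, Hist1h4f, had no read at 2.5 h and 11 to 235 before, with 53.9% shared. Gm20390 had no read and 38 to 222 before (97.5% shared), and Dynlt1a none and 22 to 339 before (79.0% shared). For Dynlt1a the fitted log2 fold change was -9.92 in edgeR but 0.04 in DESeq2. Zc3h11a was counted under 2 gene entries, and the entry concerned, all of whose words occur in other genes, had 13 reads at 2.5 h and 182 to 1104 before. Pcdha12, 1 of a cluster of protocadherins with common last exons, had 3 reads and 25 to 113 before (70.1% shared). Of the 10 genes with the largest gap below, 5 thus share over 50% of their words, and DESeq2 passed Slc14a1 alone.

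Histone genes of the replication-dependent clusters lay on both sides. Of 39 tested, 14 were above (35.9%) and 10 below the range (25.6%), with 22.7% and 18.6% over all genes compared. In this family 1 was 2-fold above and 6 were 2-fold below. Hist1h4k was at 0.620 CPM with 4.51 to 16.2 CPM before, and Hist3h2ba had 5 reads with 17 to 31 before. Hist1h2ak and Hist1h2an had no read at 2.5 h, against 2 to 65 and 10 to 29 reads before, and share 75.0% and 89.3% of their words. Hist2h2aa2, the member above the limit, was at 12.2 CPM at 2.5 h, but at 4.40 and 5.89 CPM in replicate 1 of 0 and 1 h and without reads in replicate 2 of both. All of its words occur in other genes. The summed level of the family was 178 CPM at 2.5 h and 128 to 162 CPM before.

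Transcripts of the mitochondrial genome were lower at 2.5 h. Of the 13 protein-coding genes of that genome, which encode subunits of the respiratory chain, 12 were below the range and none above, with a median log2 fold change of -0.89. Their summed level was 35500 and 40700 CPM at 0 h, 33900 and 32200 CPM at 1 h and 19200 CPM at 2.5 h. All mitochondrial genes together held 2.85% of the reads at 2.5 h and 4.82% to 7.25% before, and in the later libraries 5.14%, 5.40% and 3.41%. The 2.5 h share was the lowest of the 13 libraries. At 2.5 h of 0.2 Gy the direction was the opposite. That library held 6.83%, the highest share of its dose, and the 13 genes had a median log2 fold change of 0.64. Ribosomal protein genes were below the range in 38 of 83 cases and above in 1, with a median log2 fold change of -0.37. Their sum, 26100 CPM, was inside its earlier range of 23400 to 39600 CPM. The part of these shares in the other differences was not tested.

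Oocyte markers were strongly expressed, with a sum of 12900 CPM at 2.5 h and 11800 to 12800 CPM before, and 6 of 27 were above and 4 below the range. Markers of other ovarian cells were present in every library, so the libraries were not purely of oocytes. Granulosa cell markers summed to 2060 CPM at 2.5 h (1750 to 2520 CPM before) and markers of stroma and theca to 3860 CPM (3600 to 4590 CPM before). Red blood cell markers summed to 2860 CPM (2300 to 3450 CPM before). Gene by gene, however, their median log2 fold change was -1.24, with 2 of 12 tested below the range and 10 within it. Fewer cells of a type and less RNA per cell cannot be told apart in such libraries.

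Endothelial markers stood out with 8 of 10 genes below the range and none above. Their sum was 111 CPM at 2.5 h and 151 to 229 CPM before. Leukocyte markers summed to 73.0 CPM at 2.5 h, to 73.3, 115 and 122 CPM in 3 earlier libraries and to 584 CPM in replicate 2 of 0 h. Their median log2 fold change was -1.07, with 2 of 18 tested below the range and 16 within it. Beyond the 2-fold limit lay Star, the cholesterol carrier of steroid-producing cells, at 3.69 CPM with 9.47 to 14.0 CPM before, and Car1, the carbonic anhydrase of red cells. Car1 had 7 reads at 2.5 h and 16 to 184 reads before. The summed levels of the oocyte, granulosa and stroma lists thus differed little from before, and the part of the vessel and blood cell markers in other genes below the range was not tested.

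**Figure D4:**
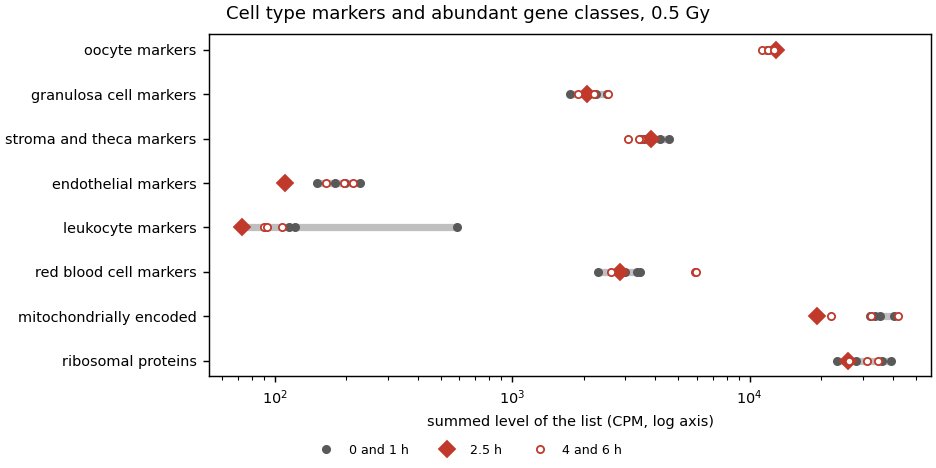
Summed level (CPM, log axis) of marker lists and abundant gene classes in the 8 libraries of 0.5 Gy, with the 4 libraries of 0 and 1 h as grey points on a bar for their range, 2.5 h as red diamonds and 4 and 6 h as open circles. Endothelial markers (111 CPM) and mitochondrially encoded genes (19200 CPM) lie left of their earlier ranges at 2.5 h, and oocyte markers are nearly level over the libraries.

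The 5 libraries of 0.2 Gy, labelled as the third generation, took no part in the rule. They allow the genes chosen at 0.5 Gy to be read in other samples, with 1 library at each of the 5 time points. Of the 182 genes 2-fold above the range at 0.5 Gy, 181 could be followed. At least 2-fold above both the 0 and 1 h libraries of 0.2 Gy were 16 of them at 2.5 h (8.84%, with 1.44% over all protein-coding genes), 40 at 4 h (22.1%, with 1.91%) and 25 at 6 h (13.8%, with 2.05%). At least 2-fold below were 14, 20 and 28 of them, or 7.73%, 11% and 15.5%, with 5.67%, 6.7% and 6.14% over all genes. The shares of the 181 genes were thus over the background on both sides. Of the 218 genes below the range at 0.5 Gy, 32, 39 and 31 were 2-fold below at 2.5, 4 and 6 h of 0.2 Gy (14.7%, 17.9% and 14.2%), with the same 5.67%, 6.7% and 6.14% over all genes. At least 2-fold above were 8, 9 and 11 of them (3.67%, 4.13% and 5.05%), with 1.44%, 1.91% and 2.05% over all genes. The shares of the 218 genes were thus also over the background on both sides.

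With 13 libraries in 1 model, edgeR compared 4 and 6 h of 0.2 Gy with 0 and 1 h. It called 3 genes higher (0.017%) and 2 lower (0.0114%) of 17598 protein-coding genes, with 1002 at an unadjusted p under 0.05. The 3 called higher were Mdm2, D630023F18Rik and Fermt1, and each was among the 182 genes 2-fold above the range at 0.5 Gy. Mdm2 was at 52.9 and 61.1 CPM at 0 and 1 h of 0.2 Gy, 102.8 CPM at 2.5 h and 256.5 and 230.9 CPM at 4 and 6 h (log2 fold change 2.10, SE 0.31, adjusted p = 0.0481 in edgeR). D630023F18Rik was at 1.18 and 2.14 CPM, then 5.19 CPM, and then 30.4 and 34.7 CPM (log2 fold change 4.29, SE 0.63, adjusted p = 0.0481 in edgeR). Fermt1, which encodes the adhesion protein kindlin-1, had a log2 fold change of 3.29 (SE 0.49, adjusted p = 0.0481 in edgeR). In a fit of the 0.2 Gy libraries only, edgeR called 0 genes higher and 1 lower. Neither of the 2 called lower, Map3k7cl and Cisd3, was 2-fold outside the range at 0.5 Gy. Fermt1, Map3k7cl and Cisd3 are named because they were called, after their values were seen.

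At 2.5 h of 0.2 Gy edgeR called no gene against 0 and 1 h (0%), with 629 genes at an unadjusted p under 0.05. Cdkn1a was at 6.97 and 14.2 CPM at 0 and 1 h, 18.6 CPM at 2.5 h and 33.8 and 22.9 CPM at 4 and 6 h of 0.2 Gy. At 2.5 h the level was 18.6 CPM at 0.2 Gy and 55.9 CPM at 0.5 Gy, in libraries of different generations. The former was scaled with TMM over all 13 libraries and the latter over the 8 libraries of 0.5 Gy. At 2.5 h of 0.2 Gy, Ccng1 was at 52.0 CPM (45.5 and 46.7 CPM before) and Trp53inp1 at 89.6 CPM (58.9 and 64.7 CPM before), while Btg2 at 55.5 CPM and Eda2r at 7.82 CPM were not above their libraries of 0 and 1 h. At 4 h Ccng1, Trp53inp1, Btg2 and Eda2r were at 96.3, 145.9, 160.9 and 24.9 CPM. Sesn2 was further from its earlier levels, at 1.85 and 2.40 CPM before and 8.34 CPM at 2.5 h. Xdh was at 48.4 CPM at 2.5 h of 0.2 Gy, with 0.636 and 0.631 CPM before and 1.68 and 1.01 CPM after, so both 2.5 h libraries held it at a level that the 4 h libraries did not keep.

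The difference between the doses at 2.5 h, tested as an interaction in the same model, was called for no gene (0%), with 773 at an unadjusted p under 0.05. For Cdkn1a the difference in log2 fold change was 2.33 (SE 0.91, adjusted p = 0.968 in edgeR) and for Mdm2 1.23 (SE 0.49, adjusted p = 0.968). For Ccng1 it was 1.46 (SE 0.50), for Trp53inp1 1.02 (SE 0.35) and for Btg2 1.84 (SE 0.53, adjusted p = 0.938). All of these genes lay 2-fold above the range in the 2.5 h library of 0.5 Gy, which also enters this difference. That choice favours a positive sign, so the sign is no evidence of a dose effect. For Sesn2, Sfn and Xdh, also 2-fold above, the difference was 0.55 (SE 0.82), 0.24 (SE 1.24) and 0.25 (SE 1.67). For Hist2h2aa2 it was -8.42 (SE 4.17). These standard errors are large, since each dose has 1 library at 2.5 h, and dose and generation cannot be told apart.

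Promoter sequences were found for 147 of the 182 genes 2-fold above the range and for 139 of the 218 below. A full p53 family element in the window was held by 2 of the 147 (1.36%), Cdkn1a and Gtse1, by none of the 139, and by 7 of 13146 protein-coding genes compared (0.0532%). Half-sites were held by 10.2% above, 10.1% below and 8.54% over all. The window reaches no further than 250 bases before a start, and elements outside it were not searched.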

How the data were processed

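RNA from oocytes of P5 CD-1 ovaries, reverse transcribed with the SMARTER kit, was sequenced as paired-end reads. Per the labels and the methods of the study, the authors ran salmon on the mouse transcriptome (GRCm38) and deposited estimated counts and TPM per transcript and library. Neither was normalized between libraries or filtered. The deposited comparison files hold the authors' fold changes, p-values and pooled normalized counts and were not used here.

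Estimated counts were summed per gene of the GENCODE vM21 annotation and rounded, which gave 49585 genes (402 of 130740 transcripts had no gene there and held up to 0.495% of reads). Genes with a mean of at least 10 reads over the 8 libraries of 0.5 Gy were normalized with TMM and tested with edgeR 4.0.16 (quasi-likelihood, groups 0 and 1 h, 2.5 h, 4 h and 6 h, 4 residual degrees of freedom, Benjamini-Hochberg adjustment) in R 4.3.3, with DESeq2 1.42.0 as an alternative. The libraries of 0 and 1 h are not replicates of 1 condition, so their spread includes any change within the first hour, and as no source says that the 2 libraries of a time point come from separate animals, p-values measure the spread between these samples, which may be technical. The 0.2 Gy comparisons and the CPM of the 0.2 Gy libraries came from a model of all 13 libraries. Each SE given with edgeR is the size of the log2 fold change divided by the square root of its F statistic. Log2 CPM used a prior count of 2, and the limit was 2-fold. A count of 0 was taken to allow 3 reads at most, for counting error alone.

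Named were Cdkn1a and Mdm2, the 15 protein-coding genes with the largest gap above and the 10 with the largest below, list members at least 2-fold outside the range or else 2 defining members of a stress list, and genes next to the limit. The members and lists were chosen with earlier results of these data known. Shared words are 30-base stretches of a gene's transcripts found in another gene on either strand. The steps were tested on simulated data. Alternatives were other scalings, filters, limits, prior counts, references, tests, a block for generation and fits without 1 library.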

Additional observations from a re-analysis of the deposited data

Results flagged for a closer look

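Among 102 sets of the 4 earlier libraries tested for a value far from the others (Dixon's test), 8 stood apart, and chance gives about 1 in 20. Replicate 2 of 0 h gave 4 of them. It had a depth of 15.7 M reads with 26.1 to 27.7 M in the others, a mitochondrial share of 7.25% with 4.82% to 5.16%, a leukocyte marker sum of 584 CPM with 73.3 to 122 CPM, and a sum of damage kinases of 1010 CPM with 780 to 797 CPM. Replicate 1 of 0 h was apart for Xpc, at 62.6 CPM with 48.5 to 49.0 CPM in the others, and for Hist3h2ba, at 0.668 CPM with 1.12 to 1.21 CPM. Replicate 2 of 1 h was apart for Pclaf, at 61.3 CPM with 81.3 to 84.4 CPM, and replicate 1 of 1 h for Dynlt1a, at 13.2 CPM with 1.257 to 3.001 CPM. These values set an end of the range for the gene or list concerned, and their causes were not tested.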

How the results depend on the processing

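The genes 2-fold outside the range were 290 above without a filter, 534 above and 567 below at a limit of 1.5-fold, and 49 and 84 at 3-fold. On TPM 1762 genes were below the range and 95 of them 2-fold. Against 0 h only, 6013 genes were above, 5113 below, 642 2-fold above and 599 2-fold below. Against 1 h only these were 6015, 5262, 451 and 533, and against the second generation of 0 and 1 h 6130, 5464, 509 and 571. Fewer libraries make a narrower range. Leaving out 1 earlier library gave 254 to 317 genes 2-fold above and 313 to 347 below, and 4374 to 4844 above and 3896 to 4182 below in all.

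edgeR called 2 genes higher and 1 lower without a filter (D630023F18Rik and Xdh, and Slc14a1), 1 higher with the 5 libraries only, and 0 to 1 in each direction when 1 library was left out. With 1 library left out at a time, the log2 fold change of D630023F18Rik was 5.45 to 5.72 and that of Slc14a1 -7.02 to -6.55. Each of the 2 genes passed in some of these fits and not in others. DESeq2 called 34 higher and 19 lower. With the generation as a block, edgeR called 0 higher and 0 lower. Libraries with the same replicate number were not taken as pairs, since their deviations correlated at 0.0966 to 0.165 between the time points with 2 libraries. With the 0.2 Gy libraries only, edgeR called 1 gene higher and 1 lower at 2.5 h, and 0 higher and 1 lower at 4 and 6 h. In these cases the cause was not tested.

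Over 73 named genes and 17 settings, 1186 of 1236 log2 fold changes kept their direction and side of the threshold, 32 came to pass it and 18 changed sign, in 5 genes: Trp53 (-0.13 to 0.15 without 1 library, and 0.01, 0.03, 0.05, 0.07 and 0.15 in other settings), Fosb (-0.24 to 0.24 without 1 library, with -0.11, and -0.1 and -0.06 in others), Hspa1b (-0.05 to 0.33 without 1 library, and -0.15 and -0.1 in others), Ddb2 (-0.03) and Dynlt1a (0.04 in DESeq2, with -9.92 in edgeR). Most of those that came to pass the threshold did so in DESeq2. In the settings of edgeR they were those of D630023F18Rik, Xdh and Slc14a1. The depth of 1 library at 2.5 h limits every comparison, and genes under about 1 CPM rest on few reads.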
